A study of Mus musculus with 3 samples.

Results

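The nuclei described here are endothelial nuclei of the embryonic mouse heart that carried transcripts of Cyp26a1, Pcdh17, Pak7 and St8sia4. A nucleus was taken if it had at least 500 detected genes and unique molecular identifiers (UMIs, each counting 1 captured RNA molecule) in at least 4 of 11 endothelial genes. These are Pecam1, Cdh5, Kdr, Tek, Tie1, Emcn, Flt1, Egfl7, Ptprb, Erg and Eng. It also had to hold UMIs of at least 2 of the 4 genes Cyp26a1, Pcdh17, Pak7 and St8sia4, and more of these than of any of 7 other sets of 4 genes that mark other endocardial or endothelial states. The rule kept 130 nuclei, 23 from Ncx1+/+, 30 from Ncx1+/- and 77 from Ncx1-/- hearts. They are 130 of 7645 nuclei that passed the endothelial requirement and of 38893 barcodes in all. The other 7515 endothelial nuclei serve as the comparison, and every triplet of values runs from Ncx1+/+ through Ncx1+/- to Ncx1-/-.

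Whole hearts of mouse embryos at embryonic day 9.5 were used, wild type, heterozygous or homozygous mutant for Ncx1, the alias of Slc8a1, which encodes the exchanger that moves calcium out of heart muscle cells in return for sodium. Embryos without it lack a normal heartbeat and blood flow, and per the series title flow and primary cilia were studied for their part in the endothelial-to-mesenchymal transition (EndoMT) of the cushions. Each genotype is 1 library of nuclei from 5 pooled hearts, so genotypes cannot be tested against each other and every value stands without a replicate. The labels name no strain, sex or deleted exon, and the mutation is not stated to be limited to a cell type.

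Cyp26a1 encodes a cytochrome P450 that breaks down retinoic acid, the vitamin A derivative that patterns the inflow end of the early heart tube. Cells exposed to retinoic acid switch the gene on through retinoic acid receptors bound next to its start site, so Cyp26a1 is both a brake on the signal and a classical reporter of it. Pcdh17 encodes a protocadherin, Pak7 a p21-activated kinase, and St8sia4 a sialyltransferase that places polysialic acid chains on the adhesion protein NCAM. At this stage the heart holds endocardium, which lines the chambers, and stretches of vascular endothelium where vessels enter and leave.

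Cyp26a1 (ENSMUSG00000024987) lies on chromosome 19 from 37697798 to 37701536 of the mm10 build. The RefSeq promoter sequence of Cyp26a1 at chr19:37697558-37697857 (build GRCm38.p6, plus strand), from 250 bases before to 50 bases after the start, is shown because it holds a match to the receptor's element. It was searched on both strands for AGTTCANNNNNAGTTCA, a direct repeat of the receptor half-site spaced by 5 bases, whose reverse complement is TGAACTNNNNNTGAACT. The capitals mark the 1 match, on the minus strand, 32 to 16 bases before the start.
Cyp26a1: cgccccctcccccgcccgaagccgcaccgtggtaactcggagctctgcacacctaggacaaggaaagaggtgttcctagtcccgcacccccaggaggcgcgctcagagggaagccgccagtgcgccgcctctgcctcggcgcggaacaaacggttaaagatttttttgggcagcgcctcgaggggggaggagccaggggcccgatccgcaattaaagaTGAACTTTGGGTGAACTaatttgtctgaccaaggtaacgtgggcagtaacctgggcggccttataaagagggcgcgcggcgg
Of 32851 promoters of the same length, 8 (0.0244%) hold a match to this exact string. Other spellings of the half-site were not counted, so the share is not that of all such elements. A match is a description of the letters and does not show that a receptor was bound in these nuclei.

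The 3 libraries held 59898298, 49022310 and 52985283 UMIs in 13805, 12563 and 12525 barcodes. The selected nuclei contributed 108159, 129357 and 311252 UMIs in all, with a median of 4187, 3974.5 and 3489 UMIs and 2251, 2208 and 2066 genes per nucleus. Other endothelial nuclei were deeper, with medians of 5311, 4554 and 4504 UMIs. Levels are given as CPM, the UMIs of a gene per 1000000 UMIs summed over the nuclei of a library, so that 1 UMI is worth 9.25, 7.73 and 3.21 CPM in the selected nuclei and a count of 0 allows up to 27.7, 23.2 and 9.64 CPM. Intervals are exact 95% Poisson or binomial intervals and cover counting error only, not the spread between nuclei or hearts. Pairs of libraries shared 40, 57 and 47 barcode sequences, and no barcode was a selected nucleus in both libraries of a pair.

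The selected nuclei made up 0.792, 1.20 and 3.43% of endothelial nuclei (exact binomial intervals 0.503% to 1.19%, 0.812% to 1.71% and 2.72% to 4.27%). These shares are read as no more than a count, because genes of the rule differed in level between the libraries outside the selected nuclei too. In other endothelial nuclei Cyp26a1 stood at 4.61, 6.54 and 15.5 CPM and Pcdh17 at 36.7, 38.7 and 70.8 CPM. Most selected nuclei sat at the threshold: 111 held 2 of the 4 genes, 19 held 3 and 0 held all 4. Pcdh17 was detected in 16 of 23, 21 of 30 and 58 of 77 nuclei, and Cyp26a1 in 11, 17 and 59. The pair of Cyp26a1 and Pcdh17 was the commonest, in 54 nuclei. In 11 of the 130 nuclei no gene of another set was detected.

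The genes of the rule are given as a description only, since they chose the nuclei. Cyp26a1 stood at 129, 178 and 286 CPM, Pcdh17 at 453, 363 and 431 CPM, Pak7 at 194, 108 and 161 CPM and St8sia4 at 148, 162 and 125 CPM. Pak7 and St8sia4 were at most 8.18 and 4.83 CPM in other endothelial nuclei.

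The label of endothelium follows from the rule, which required these genes, so their level is a description. All 11 endothelial genes were detected in every library, and their summed level was 5714, 5728 and 6471 CPM, against 4826, 4831 and 4449 CPM in other endothelial nuclei and 74.3, 72.2 and 81.1 CPM in cardiomyocyte nuclei (at least 12 of 15 cardiomyocyte markers and at most 1 endothelial gene). Markers of other lineages, which the rule did not use, were partly at 0 in all 3 libraries. Of the epicardial genes, 7 of 10 were at 0, Wt1, Tbx18 and Aldh1a2 among them. Of the epithelial genes, 7 of 9 were at 0, including Epcam and Cdh1. A count of 0 carries little at this depth: Wt1 stood at 2.48, 2.88 and 9.11 CPM and Epcam at 0.288, 0.234 and 1.77 CPM in other endothelial nuclei, below the level that 0 UMIs allow. Of the haemogenic and blood progenitor genes, 6 of 15 were at 0, including Ptprc and Myb. The 14 not used by the rule summed to 1.57, 1.52 and 1.26 times the other nuclei. Fli1, an ETS factor of endothelium as well as blood, carries most of this sum, with 1045, 881 and 659 of 1239, 1129 and 819 CPM. Fewer genes were at 0 in the erythroid list, 2 of 11, and the cushion mesenchyme list, 2 of 13.

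Cardiomyocyte RNA was present. The 15 cardiomyocyte markers summed to 4845, 4406 and 7489 CPM, which is 18.6, 16.00 and 26.8% of their level in cardiomyocyte nuclei. Other endothelial nuclei held more of them, 6082, 7196 and 10591 CPM. Of the 15, Nkx2-5 was at 0 in Ncx1+/+, and none was at 0 in the other libraries. Erythroid genes summed to 249.6, 812 and 106 CPM against 401, 435 and 199 CPM, and Ncx1+/- was the library in which they were higher in the selected nuclei. Their part in the results below was not tested.

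Marker genes of vascular endothelium were higher and markers of endocardium lower than in the other endothelial nuclei. The 19 vascular genes summed to 3162, 3378 and 3602 CPM, 1.61, 1.82 and 2.12 times the level of the other nuclei. The 17 endocardial genes summed to 8081, 7723 and 5712 CPM, 0.663, 0.688 and 0.800 times that level. Not all genes of the vascular list could be judged: Cxcr4, Apln, Fabp4 and Aqp1 were at 0 in all 3 libraries. In other endothelial nuclei they were at most 4.26 CPM, below the level that 0 UMIs allow, so these zeros carry little. Cldn5, a tight junction gene of vessels, had 0, 1 and 4 UMIs. Endocardial genes were present: Npr3, a natriuretic peptide receptor of chamber endocardium, stood at 509, 433 and 498 CPM against 597, 679.6 and 525 CPM. Nfatc1, a transcription factor of cushion endocardium, stood at 268, 131 and 247 CPM against 445, 401 and 276 CPM, with folds of 0.602, 0.328 and 0.896. The nuclei are therefore called by their genes and not by a vessel.

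**Figure D1:**
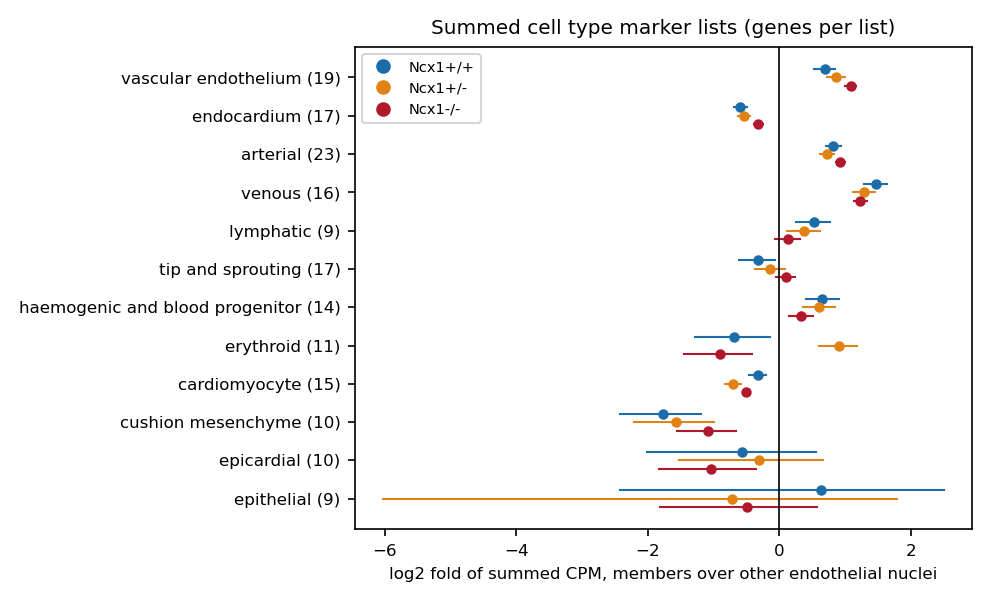
Log2 fold of the summed CPM of each marker list, selected nuclei over other endothelial nuclei, with the number of genes in brackets; points are libraries and bars 95% counting intervals. Vascular, arterial and venous lists lie above 0 and the endocardial and cushion mesenchyme lists below 0 in every library, while the erythroid list lies on both sides.

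Among 12261 genes with at least 100 UMIs over both groups, 33 (0.269%) were at least 2-fold higher in the selected nuclei in each of the 3 libraries with each counting interval above 1. Another 21 (0.171%) were as far below. The nuclei were chosen on their counts, so this contrast is a description with no test, and genes used by the rule are not counted. The 33 and 21 genes are termed called. Across all these genes the median log2 fold was 0.34, 0.22 and 0.05. Genes with 0 UMIs enter that median and those of the lists below at the level of 3 UMIs, which raises them where few nuclei were summed. With trimmed mean (TMM) scaling it shifted to 0.17, 0.07 and -0.01, and the counts became 28 higher and 30 lower, so that 48.3% of the called genes were higher instead of 61.1%.

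Tll1, which encodes a tolloid-like metalloprotease that cuts procollagens and the BMP antagonist chordin, stood furthest above the other nuclei by the smallest of its 3 folds. It lies on chromosome 8 from 64014931 to 64206271. Its level was 1257, 1283 and 1249.8 CPM against 105, 146 and 209 CPM in other endothelial nuclei. The 3 libraries of selected nuclei were alike, whereas the other nuclei were higher in Ncx1-/-. The folds were 12.02, 8.81 and 5.97 (intervals 10.02 to 14.3, 7.47 to 10.3 and 5.35 to 6.65). At least 1 Tll1 UMI was found in 18, 19 and 49 of the 23, 30 and 77 nuclei, or 78.3, 63.3 and 63.6% (exact binomial intervals 56.3% to 92.5%, 43.9% to 80.1% and 51.9% to 74.3%). This compares with 15.2, 17.1 and 23.6% of other endothelial and 5.05, 3.60 and 2.69% of cardiomyocyte nuclei. With each nucleus thinned to 2000 UMIs, leaving 23, 29 and 74 selected nuclei, the shares were 69.6, 58.6 and 56.8%, 9.37, 12.3 and 16.9% and 2.80, 1.90 and 1.24%.

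Bmp6, a BMP ligand, was also higher, at 425, 456 and 302 CPM against 143, 129 and 109 CPM, with folds of 2.98, 3.55 and 2.76. Among the 26 BMP and TGF-beta genes measured it was the 1 called higher, and 0 were lower. The list's median log2 fold was 0.25, 0.24 and 0.01, close to that of all genes.

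Isl1 and Tox were also among the 12 highest. Isl1, the LIM-homeodomain factor of second heart field progenitors, lies on chromosome 13 from 116298281 to 116309689. It stood at 185, 108 and 132 CPM against 24.3, 27.7 and 24.98 CPM, with folds of 7.61, 3.91 and 5.27 (intervals 4.60 to 11.9, 2.12 to 6.65 and 3.71 to 7.33). Its 20, 14 and 41 UMIs came from 8, 9 and 22 nuclei, so most selected nuclei had none. In cardiomyocyte nuclei Isl1 was at 16.7, 17.6 and 15.1 CPM, below both endothelial groups. Tox, an HMG-box protein best known from T cell development, stood at 407, 255 and 218 CPM against 55.5, 56.01 and 66.8 CPM, with folds of 7.33, 4.55 and 3.27. Its relative Tox3 was higher as well, at 46.2, 54.1 and 32.1 CPM against 12.8, 10.7 and 11.3 CPM, on 5, 7 and 10 UMIs. Of the 28 TOX and endothelial transcription factor genes measured, Tox and Tox3 were the 2 called higher. The list's median log2 fold was 0.37, 0.55 and 0.50.

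Flrt2, Clec14a and Nlgn1 encode proteins of the cell surface. Flrt2, a leucine-rich repeat protein that binds Unc5 receptors, stood at 804, 889 and 636 CPM against 199, 197 and 207 CPM, with folds of 4.04, 4.51 and 3.07 (intervals 3.23 to 5.004, 3.71 to 5.44 and 2.64 to 3.55). It was detected in 18, 18 and 43 nuclei. In Ncx1+/- 1 nucleus held 39 of the 115 Flrt2 UMIs. Clec14a, an endothelial lectin receptor, had 5, 5 and 20 UMIs and folds of 4.67, 3.79 and 3.68, and was not called without the nucleus that held most of its UMIs. Nlgn1, a neuroligin known from synapses, had folds of 23.2, 16.9 and 4.53, but on 13, 7 and 5 UMIs in 3, 3 and 3 nuclei. These few nuclei carry the whole of its difference.

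The 12 highest also held Rapgef4, a cAMP-activated exchange factor for Rap, and Arhgap18, a GTPase-activating protein. Rapgef4 stood at 222, 92.8 and 106 CPM against 29.3, 26.3 and 26.7 CPM. Arhgap18 stood at 157, 186 and 202 CPM against 53.6, 55.5 and 69.2 CPM, with folds between 2.93 and 3.35, and was the 1 vascular list gene of 15 measured that was called. Tes, which encodes the focal adhesion protein testin, had folds of 7.98, 3.38 and 3.43. Enpp3 and Prl2c3 rested on few molecules, 3, 3 and 5 and 3, 4 and 7 UMIs. For Enpp3, an ectonucleotidase, the folds were 5.29, 5.73 and 4.05 (intervals 1.07 to 15.96, 1.14 to 17.7 and 1.26 to 10.1). Prl2c3 belongs to a family of near-identical prolactin-like genes whose reads cannot always be told apart, so its value is uncertain.

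**Figure D2:**
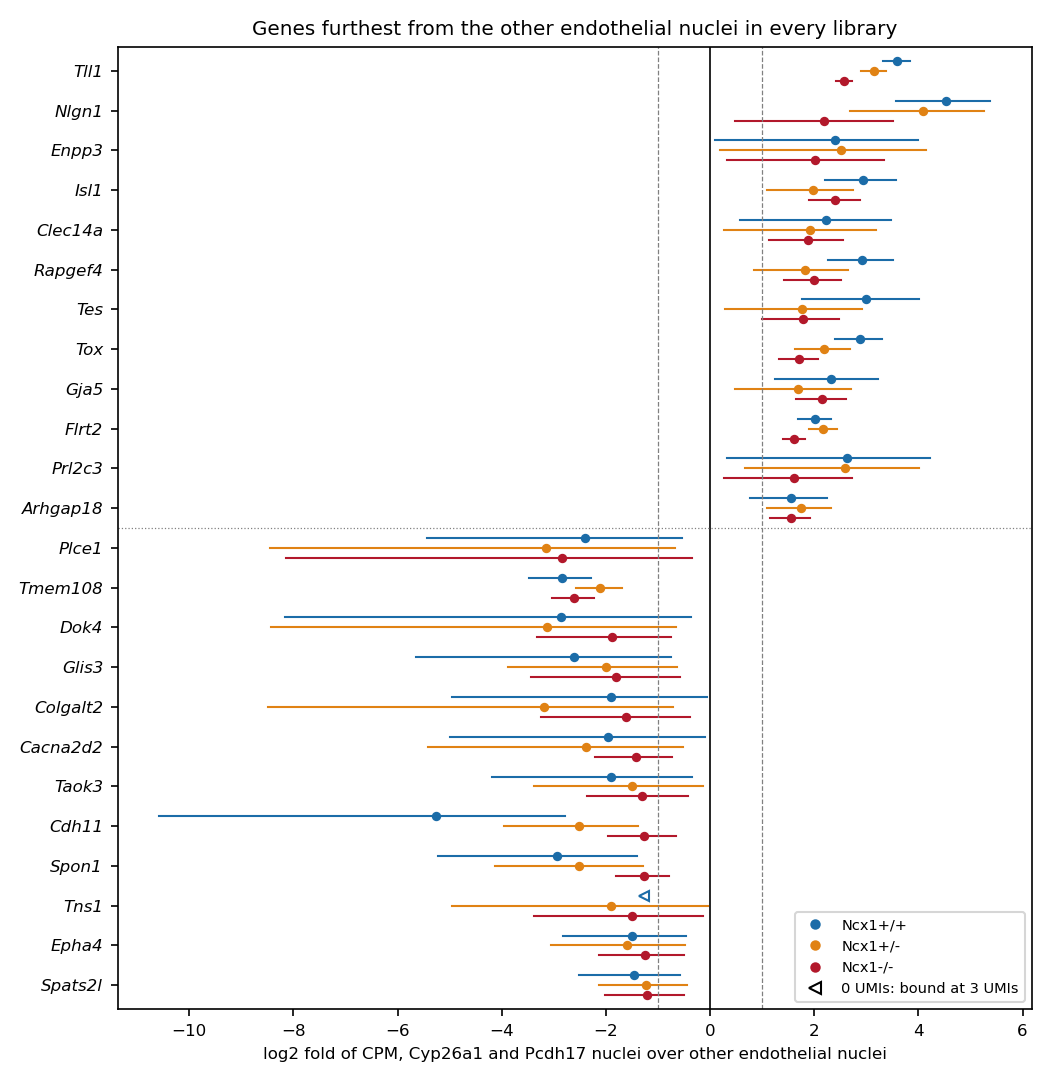
Log2 fold of CPM, selected nuclei over other endothelial nuclei, for the 12 highest and 12 lowest genes, with 95% counting intervals; colours are libraries, dashed lines mark 2-fold and the open triangle is a bound for a gene with 0 UMIs. Tll1, Isl1, Tox and Flrt2 have narrow intervals, while Enpp3, Prl2c3, Plce1 and Dok4 have wide ones.

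Genes lower in the selected nuclei included Tmem108, Tbx20 and Cdh11, each of them abundant in the other endothelial nuclei. Tmem108, a transmembrane protein gene, stood at 231, 340.1 and 167 CPM against 1657, 1478 and 1026 CPM, 7.17, 4.35 and 6.14-fold lower. Tbx20, a T-box factor of endocardium and heart muscle, stood at 582, 472 and 308 CPM against 1449.9, 1244 and 683 CPM, 2.49, 2.64 and 2.21-fold lower. Cdh11, a cadherin of mesenchyme and cushion endocardium, had 1, 6 and 21 UMIs. Its level of 9.25, 46.4 and 67.5 CPM compares with 357, 265 and 163 CPM, and its ratios were 0.0259, 0.175 and 0.414 (intervals 0.000656 to 0.144, 0.0641 to 0.381 and 0.255 to 0.634). The selected nuclei of Ncx1-/- were the closest to their neighbours in Cdh11, and the difference between libraries was not tested. Tbx20 and Cdh11 were the 2 called lower of 17 endocardial genes measured, while Tmem100, a BMP-responsive endothelial membrane protein gene, was called higher at 176, 155 and 328 CPM against 39.5, 55.1 and 108 CPM. The endocardial list's median log2 fold was -0.70, -0.58 and -0.18.

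The 12 lowest genes also held Spon1, Epha4 and Spats2l. Spon1, a matrix protein gene, stood at 27.7, 38.7 and 109 CPM against 214, 221 and 264 CPM. Epha4, a receptor for ephrins, stood at 64.7, 46.4 and 44.98 CPM against 184, 141 and 107 CPM. Spats2l stood at 92.5, 100.5 and 51.4 CPM against 255, 235 and 119 CPM. All 3 were lower in every library. Taok3, Glis3, Dok4, Colgalt2, Cacna2d2, Plce1 and Tns1 had 17 or fewer UMIs in any library. In cardiomyocyte nuclei Spon1 stood at 547, 483 and 457 CPM and Epha4 at 213, 197 and 203 CPM, above both endothelial groups. There Cacna2d2 stood at 417, 408 and 450 CPM and Spats2l at 46.4, 44.1 and 44.2 CPM. The part of muscle RNA in these differences was not tested. Glis3, a zinc finger factor, had 2, 4 and 5 UMIs and ratios of 0.164, 0.251 and 0.285 (intervals 0.0199 to 0.595, 0.0683 to 0.644 and 0.0921 to 0.667). Plce1, a phospholipase C gene, had 2, 1 and 1 UMIs and ratios of 0.190, 0.113 and 0.139 (intervals 0.0230 to 0.687, 0.00285 to 0.630 and 0.00352 to 0.784). Tns1, which encodes the focal adhesion protein tensin, had 0 UMIs in Ncx1+/+, which places it at least 2.41-fold lower there.

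The arterial and venous lists both had medians above 0 against the other endothelial nuclei. The connexins of arterial endothelium were called higher: Gja4 stood at 185, 85.04 and 202 CPM against 22.8, 30.8 and 56.2 CPM, and Gja5 at 92.5, 61.8 and 135 CPM against 18.4, 19.1 and 30.5 CPM. Of the 22 arterial genes measured these were the 2 called, 0 were lower, and 16 lay above in all 3 libraries. Over all genes 3580 of 12261 did so. The arterial median log2 fold was 0.86, 0.55 and 0.91. Other arterial genes were less far apart. Efnb2 stood at 499, 363 and 279.5 CPM against 279.9, 285 and 254 CPM, and the Notch ligand gene Dll4 at 64.7, 38.7 and 48.2 CPM against 23.2, 26.3 and 28.9 CPM. Gja5 was not called without the nucleus that held most of its UMIs. It also marks trabecular muscle and stood at 24.3, 23.95 and 49.3 CPM in cardiomyocyte nuclei.

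On the venous side, Vwf, the von Willebrand factor gene, was called higher at 120.2, 92.8 and 196 CPM against 35.7, 34.5 and 51.8 CPM. The venous list has 14 measured genes, of which Vwf and Tll1 were called higher and 0 lower, with a median log2 fold of 0.99, 0.58 and 0.63. Tll1 carries much of its sum: the list stood at 2.76, 2.44 and 2.35 times the other nuclei with Tll1 and at 1.63, 1.31 and 1.57 times without it. Nr2f2, the factor that sets venous identity, stood at 231, 155 and 312 CPM against 93.9, 105 and 206 CPM, with folds of 2.46, 1.47 and 1.51 (intervals 1.59 to 3.65, 0.893 to 2.27 and 1.22 to 1.85). Ephb4, the venous receptor of ephrin-B2, stood at 166, 116 and 129 CPM against 108, 105 and 98.8 CPM, and each of its intervals included 1. Aplnr had 0, 2 and 4 UMIs, and Lyve1 had 0 in every library. Lyve1 was at most 2.57 CPM in other endothelial nuclei, below the level that 0 UMIs allow.

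Arterial and venous UMIs were counted nucleus by nucleus. UMIs of an arterial gene (Gja4, Gja5 or Sox17) but of no venous gene (Nr2f2, Nrp2 or Vwf) were found in 23 of the 130 nuclei. In 40 nuclei the reverse held. Both kinds were found in 55 nuclei, 8 of 23 in Ncx1+/+, 4 of 30 in Ncx1+/- and 43 of 77 in Ncx1-/-. Neither was found in 12. The nuclei with both kinds are 34.8, 13.3 and 55.8% of the selected nuclei (exact binomial intervals 16.4% to 57.3%, 3.76% to 30.7% and 44.1% to 67.2%). The background is 16.00, 16.5 and 36.1% of other endothelial and 4.32, 3.24 and 4.84% of cardiomyocyte nuclei, at median depths of 4187, 3974.5 and 3489, 5311, 4554 and 4504 and 4155.5, 3832 and 3916 UMIs. The share was thus highest in Ncx1-/- among the other endothelial nuclei too, and in Ncx1+/- the selected nuclei were not above them. These 6 genes were chosen after their levels were known, and a nucleus with few UMIs can miss a gene that it expresses.

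Against the other endothelial nuclei, the retinoic acid pathway outside Cyp26a1 gave no called gene. Of 24 other genes of synthesis, breakdown, transport, receptors and targets, 15 were measured, and 0 were called higher or lower. The median log2 fold was 0.07, 0.50 and 0.37. Cyp26b1, the related degrading enzyme, stood at 92.5, 69.6 and 70.7 CPM against 51.1, 49.3 and 42.9 CPM, with folds of 1.81, 1.41 and 1.65 (intervals 0.864 to 3.34, 0.642 to 2.70 and 1.02 to 2.52). Rarb, a receptor gene that retinoic acid itself switches on, stood at 36.98, 77.3 and 96.4 CPM against 56.4, 55.4 and 58.6 CPM. It was below the other nuclei in Ncx1+/+ and above them in the other libraries, on 4, 10 and 30 UMIs. Cardiomyocyte nuclei held more Rarb, at 138, 134 and 131 CPM. The synthesis genes Aldh1a1 and Aldh1a2 had 0 UMIs in the selected nuclei, as had Cyp26c1. In other endothelial nuclei these genes were at most 1.27 CPM, below the level that 0 UMIs allow. Rdh10, which makes the precursor retinaldehyde, had 1, 6 and 3 UMIs. The most abundant members were Meis2, at 1452, 1778 and 1944 CPM against 2613, 2682 and 1849 CPM, and Meis1, at 490.0, 688 and 463 CPM against 852, 839 and 559.5 CPM. Both are homeobox factors with broad expression. Meis1 lay below the other nuclei in all 3 libraries and Meis2 in Ncx1+/+ and Ncx1+/-, without reaching the 2-fold limit in each.

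Flow-responsive genes lay on both sides of the other nuclei. Piezo2, a mechanically gated channel gene, was called higher at 73.97, 193 and 122 CPM against 28.05, 28.6 and 23.5 CPM, as were Gja4 and Gja5, 3 of 31 measured, with 0 lower. Klf2, the shear-responsive factor of endocardium, was lower at 36.98, 23.2 and 73.9 CPM against 150.3, 148 and 113 CPM, on 4, 3 and 23 UMIs. Its ratios were 0.246, 0.156 and 0.654 (intervals 0.0670 to 0.631, 0.0322 to 0.458 and 0.413 to 0.985), so each interval lay below 1 but the Ncx1-/- ratio missed the 2-fold limit. Klf4 had 0, 0 and 1 UMIs and could not be told from its level of 17.05, 17.4 and 6.67 CPM in the other nuclei at this depth.

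Cav1, which encodes the coat protein of endothelial caveolae, had 2, 5 and 36 UMIs and was not called. Its level was 18.5, 38.7 and 116 CPM against 6.57, 7.40 and 22.3 CPM, with folds of 2.82, 5.22 and 5.19 (intervals 0.337 to 10.4, 1.66 to 12.6 and 3.56 to 7.37). Cardiomyocyte nuclei held 19.6, 20.7 and 19.7 CPM, so the Ncx1+/+ value was no higher than theirs. Of the 9 caveolar genes measured, 0 were called in either direction. Cav2 had 1, 0 and 1 UMIs. Of the 12 sialyltransferase and polysialic acid genes and the 21 protocadherin and adhesion genes measured, beside those of the rule, 0 were called.

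Levels were also compared with the nuclei of each other set, chosen in the same way on other genes. All 12 of the highest named genes stood above every other set in each library. Of the 12 lowest, 11 stood below every other set. The exception was Glis3, which in Ncx1-/- lay above 1 other set. The other sets are part of the nuclei against which these genes were ranked, so this order follows largely from the choice of genes. Some gaps were small: Enpp3 in Ncx1-/- had 5 UMIs against 4 in the set marked by Sox9, 16.1 against 12.7 CPM. Set 2, marked by Dkk2 and Ano1, had no nucleus in Ncx1-/-. Tll1 reached at most 160.1, 257 and 311 CPM in any other set, so the selected nuclei stood 7.85, 4.99 and 4.01 times above the highest. The sets marked by Ebf3 and Tbx5 and by Grin2c, Etv2 and Kit were those highest values. Isl1 reached at most 42.6, 38.04 and 53.9 CPM, and Flrt2 at most 370.4, 286 and 213 CPM. Bmp6 was at most 229, 216 and 107 CPM elsewhere, with set 2 and the Sox9 set highest in Ncx1+/+ and Ncx1+/-. Tbx20 and Tmem108 were lower in the selected nuclei than in every other set of each library. Piezo2 was not highest here in Ncx1+/+, where set 2 stood at 129 CPM. Efnb2 and Dll4 were highest here in Ncx1+/+ only. In Ncx1+/- Efnb2 was level with set 2, both at 363 CPM. Dll4 there was 38.7 CPM, against 44.04 CPM in the Grin2c, Etv2 and Kit set. In Ncx1-/- the set marked by Sema4d stood at 296.8 against 279.5 CPM for Efnb2 and 49.04 against 48.2 CPM for Dll4. Nr2f2 was 1.49, 1.17 and 1.15 times the highest other set.

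**Figure D3:**
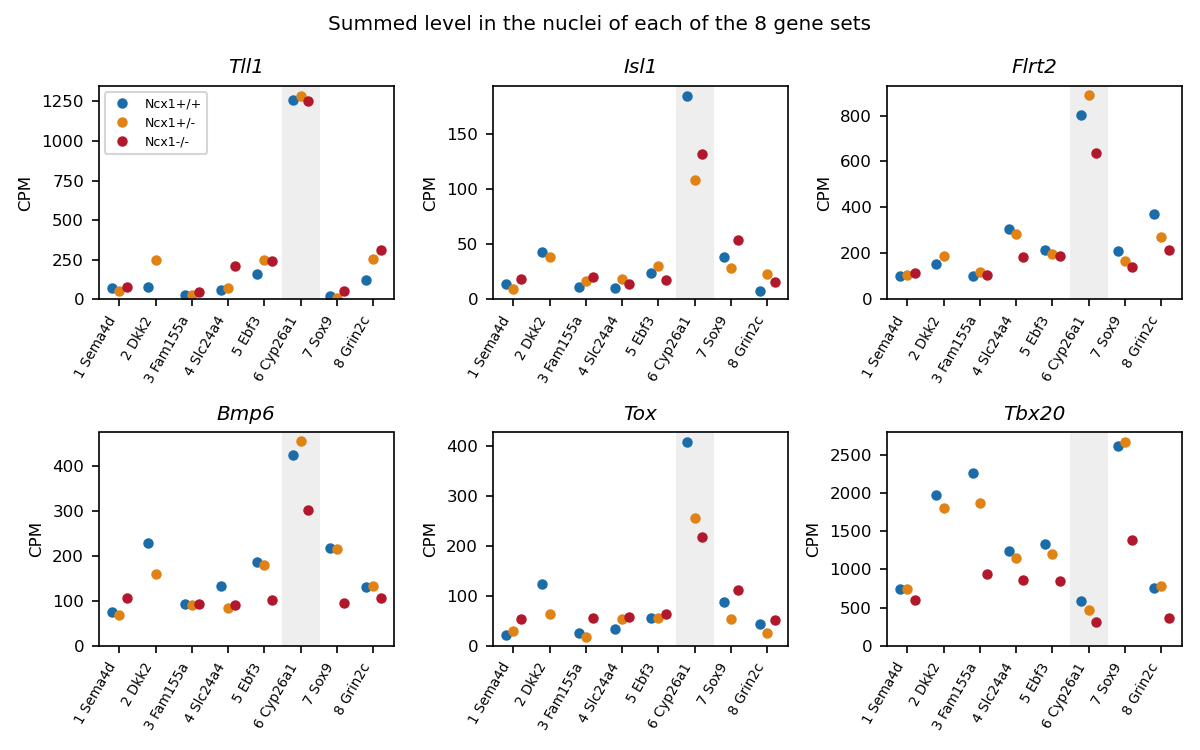
CPM of 6 genes in the nuclei of each of the 8 gene sets (set number and 1 gene of the set on the x axis); points are libraries, the selected nuclei are shaded, and set 2 has no nuclei in Ncx1-/-. Tll1, Isl1, Flrt2, Bmp6 and Tox are highest and Tbx20 lowest in the shaded set in every library.

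Nuclei near the threshold were intermediate in Tll1. Over the 3 libraries, Tll1 stood at 100.5 CPM in the 6247 endothelial nuclei with 0 genes of the set and at 341 CPM in the 1151 with 1 gene that did not exceed another set. It stood at 776 CPM in 46 nuclei with 1 gene and none of another set. In 71 nuclei with 2 or more genes that another set equalled or exceeded it was 407 CPM. Selected nuclei with 2 genes had 1128 CPM and the 19 with 3 genes 2032 CPM. Tmem108 ran the other way, from 1503 CPM at 0 genes to 222 and 213 CPM in the selected nuclei. Npr3 showed no such order, at 446 and 715 CPM in the selected nuclei and 612 CPM at 0 genes. Flrt2 in the 46 nuclei just outside, at 638 CPM, was close to the 661 CPM of selected nuclei with 2 genes. In Ncx1+/+ the 11 such nuclei outside exceeded the selected nuclei with 2 genes in Flrt2, at 831 against 701 CPM. The 3-gene value of Flrt2 ranged from 569 CPM in Ncx1-/- to 2597 CPM in the 3 nuclei of Ncx1+/-. Tbx20 in Ncx1-/- stood at 98.6 CPM in the 18 such nuclei outside, below the 341 and 126 CPM of the selected nuclei.

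**Figure D4:**
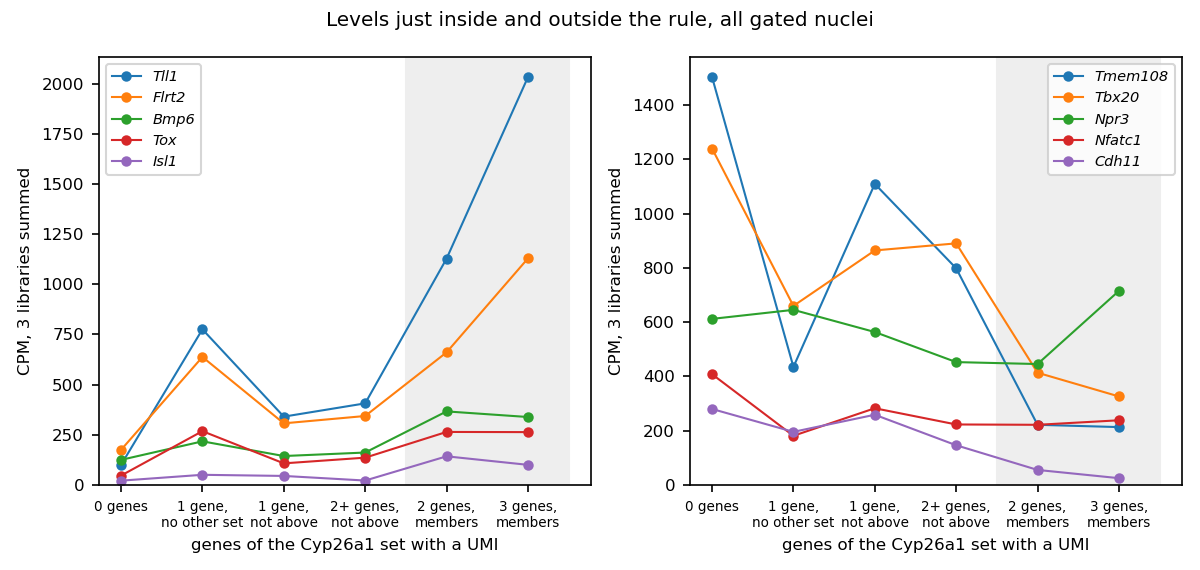
CPM over the 3 libraries by the number of genes of the Cyp26a1 set with a UMI and by whether another set equalled or exceeded it; the selected nuclei are shaded, and lines only join the points of a gene. Tll1 is highest and Tmem108 and Cdh11 are lowest in the shaded classes, which also holds in each library. Flrt2, Tbx20 and Isl1 have exceptions in single libraries. Tox is not highest in the shaded classes, at 264 and 263 CPM against 268 CPM in the 46 nuclei with 1 gene and none of another set.

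Among the selected nuclei, those with and without a Cyp26a1 UMI were compared by their other genes. Tll1 stood at 1086, 1004 and 1101 CPM in the 11, 17 and 59 nuclei with Cyp26a1 and at 1394, 1762 and 1734 CPM in the 12, 13 and 18 without. It was thus abundant in both. Isl1 was higher with Cyp26a1 in each library, at 229.7, 122 and 155 CPM against 149, 83.9 and 54.6 CPM. Nr2f2 was lower with Cyp26a1 in each, at 188, 97.9 and 252 CPM against 265, 252 and 505 CPM. Nuclei without Cyp26a1 had to hold 2 other genes of the set, so their higher Pcdh17 and Pak7 follow from the rule. These are splits of few nuclei and were not tested.

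Between genotypes, the targeted gene was examined first. Slc8a1 (ENSMUSG00000054640, chromosome 17 from 81373105 to 81738377, minus strand) stood at 1886, 912 and 154 CPM in the selected nuclei, on 204, 118 and 48 UMIs. The levels ran in the order of the labels, highest in wild type and lowest in the homozygous mutant. The Ncx1-/- level was 12.2-fold (8.89 to 17.1) below Ncx1+/+ and 5.92-fold (4.20 to 8.46) below Ncx1+/-. Slc8a1 is a muscle gene, at 17065, 9082 and 1302 CPM in cardiomyocyte nuclei, and single nuclei held 91, 55 and 10 of its UMIs in the 3 libraries. Summed cardiomyocyte markers had another order, highest in Ncx1-/-. With Cyp26a1 left out of the rule, which leaves 13, 16 and 26 nuclei, the direction was the same but the gene no longer met the limits.

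Among 2672 genes with at least 50 UMIs over the selected nuclei, 60 (2.25%) were at least 1.5-fold higher in Ncx1-/- than in both other libraries with intervals excluding 1. Another 74 (2.77%) were as far below. For Ncx1+/- the counts were 25 (0.936%) and 26 (0.973%). The median log2 ratio of all 2672 genes was -0.03 and -0.04 for Ncx1-/- over Ncx1+/+ and over Ncx1+/-.

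Genes of the low oxygen response and glycolysis were higher in Ncx1-/-, with more called members than any other list. Of 19 measured, 14 stood apart as higher and 0 as lower, and all 19 lay above both other libraries. The list's median log2 ratio was 1.24 and 1.16 over Ncx1+/+ and Ncx1+/-. In other endothelial nuclei the same genes had medians of 1.56 and 1.12, so the selected nuclei share this with the rest. Slc2a3, which encodes the glucose transporter GLUT3, had 3, 9 and 92 UMIs and stood at 27.7, 69.6 and 296 CPM. Its Ncx1-/- level was 10.7 times (95% counting interval 3.53 to 52.6) the Ncx1+/+ level and 4.25 times (2.14 to 9.58) the Ncx1+/- level. Hexokinase 2, Hk2, stood at 64.7, 178 and 463 CPM, and Ncx1-/- was 7.15 times (95% counting interval 3.38 to 18.1) the Ncx1+/+ level and 2.60 times (1.67 to 4.24) the Ncx1+/- level. Slc2a1, the gene of GLUT1, stood at 139, 209 and 395 CPM, with ratios of 2.85 and 1.89. Ncx1-/- was the highest library for each.

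Other genes of this group were Bnip3, a mitophagy receptor gene, at 46.2, 46.4 and 173 CPM, and Vegfa, the angiogenic growth factor, at 83.2, 69.6 and 196 CPM. Their ratios to Ncx1+/+ and Ncx1+/- were 3.75 and 3.74 for Bnip3 and 2.36 and 2.82 for Vegfa. The glycolytic enzymes Gapdh, Ldha, Eno1, Pkm, Aldoa, Pgk1, Tpi1 and Pgam1 and the kinase Pdk1 stood apart too. Ldha, which makes lactate, stood at 203, 247 and 575 CPM. Pgm2, a phosphoglucomutase gene outside the list, stood at 36.98, 61.8 and 154 CPM. The vasodilator peptide gene Adm had 0, 0 and 15 UMIs, too few to be measured. Against the limit of 3 UMIs per library it was at least 1.74-fold and 2.08-fold higher in Ncx1-/-.

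Cardiomyocyte markers were higher in the same library. Of the 12 measured, Myh6, Tnnt2, Ryr2, Myl4 and Myl7 stood apart as higher in Ncx1-/- and 0 as lower, and the summed level of 7489 CPM exceeded the 4845 and 4406 CPM of the other libraries. The muscle genes Tecrl, Fgf13 and Nexn, among the 10 highest, follow the same order, at 27.7, 46.4 and 161 CPM, 18.5, 54.1 and 186 CPM and 92.5, 155 and 379 CPM. Each was higher still in the other endothelial nuclei of the same library. Of 20 ribosomal protein genes measured, 2 stood apart as higher, with a median log2 ratio of 0.78 and 0.42. Malat1, a nuclear noncoding RNA, stood at 28310.2, 33179.5 and 46120.2 CPM. The part of muscle RNA or of RNA quality in the glycolytic genes was not tested. With the doublet and mitochondrial filter 9 of the glycolytic list stood apart, and 4 when Cyp26a1 was left out of the rule. After thinning to 2000 UMIs 1 did, and 0 when 3 genes of the rule were required.

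**Figure D5:**
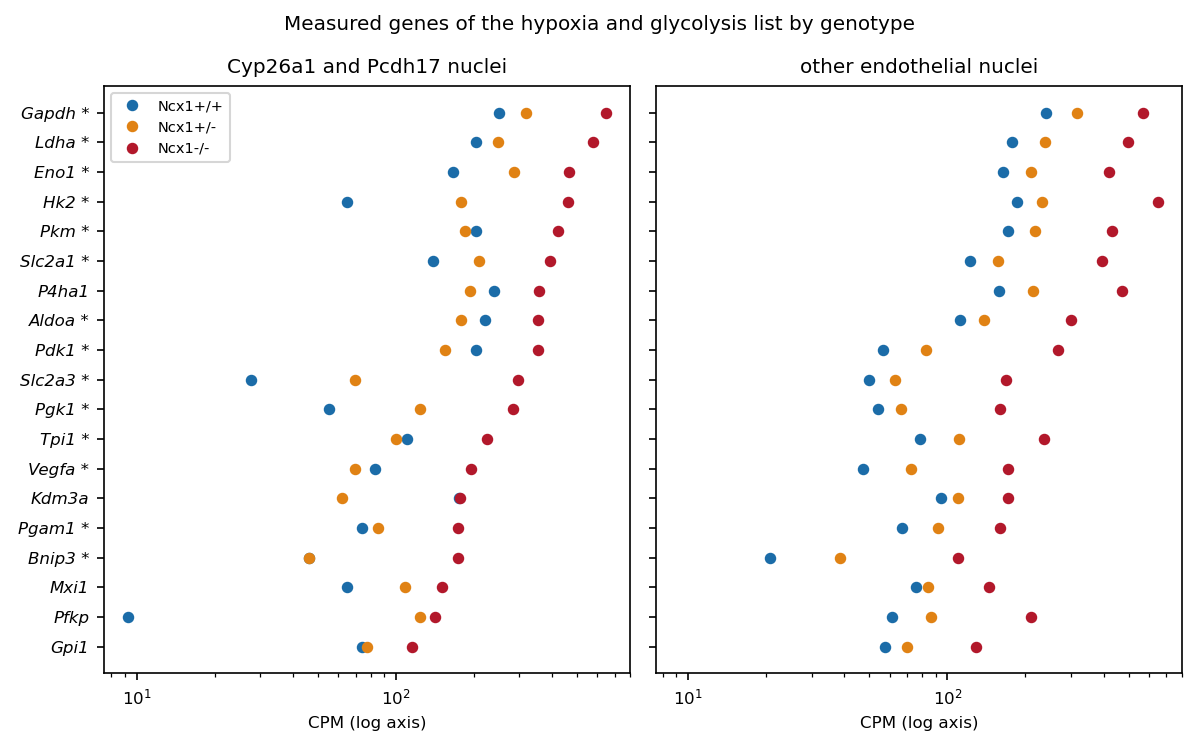
CPM (log axis) of the 19 measured genes of the hypoxia and glycolysis list in the selected nuclei (left) and in other endothelial nuclei (right); colours are libraries and stars mark the 14 genes that stand apart in the selected nuclei of Ncx1-/-. The Ncx1-/- point is the rightmost in every row of both panels.

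Of 8 vascular endothelium genes measured between genotypes, 1 stood apart, Sox17, as higher in Ncx1-/-. Sox17, a factor of arterial endothelium, stood at 46.2, 46.4 and 183 CPM, on 5, 6 and 57 UMIs in 5, 4 and 35 nuclei. Ncx1-/- was 3.96 times (95% counting interval 1.60 to 12.7) the Ncx1+/+ level and 3.95 times (1.71 to 11.2) the Ncx1+/- level. In the other endothelial nuclei its ratios were 3.30 and 2.58. Igfbp3, a binding protein for insulin-like growth factors, stood at 27.7, 100.5 and 193 CPM. Tmem100, on the endocardial list, stood at 176, 155 and 328 CPM and stood apart as higher. Mef2c, a MADS-box factor, stood at 610.2, 595 and 932 CPM, with ratios of 1.53 and 1.57. Sox17 and Igfbp3 were the 2 of 9 arterial genes measured that stood apart, and the list's median was -0.02 and 0.13. Itm2b, a membrane protein gene, stood at 55.5, 30.9 and 148 CPM.

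Some markers of the selected nuclei differed between the libraries and some did not. Tll1 stood at a nearly constant level, with an Ncx1-/- level 0.994 times (95% counting interval 0.816 to 1.22) the Ncx1+/+ level and 0.974 times (0.810 to 1.18) the Ncx1+/- level, while in other endothelial nuclei the ratios were 2.001 and 1.44. Tox was lower in Ncx1-/- than in Ncx1+/+, at 0.537 times (interval 0.362 to 0.803). Against Ncx1+/- the interval of 0.557 to 1.34 included 1. Cav1 in Ncx1-/- was 6.25 times (95% counting interval 1.61 to 53.6) the Ncx1+/+ level and 2.99 times (1.17 to 9.77) the Ncx1+/- level, on few UMIs. Its 2 UMIs in Ncx1+/+ came from 1 nucleus. In other endothelial nuclei Cav1 stood at 6.57, 7.40 and 22.3 CPM, so it was highest in Ncx1-/- there too. Foxp2, a forkhead factor, stood at 610.2, 456 and 292 CPM and stood apart as lower.

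After Slc8a1, the genes furthest below in Ncx1-/- were Kitl and Slit2. Kitl, the ligand of the Kit receptor, stood at 231, 224 and 48.2 CPM, 4.80-fold (2.43 to 9.78) below Ncx1+/+ and 4.65-fold (2.41 to 9.34) below Ncx1+/-. Slit2, a guidance ligand of Robo receptors, stood at 1072, 1252 and 324 CPM, 3.31-fold (2.51 to 4.36) below Ncx1+/+ and 3.86-fold (2.99 to 4.998) below Ncx1+/-, and was found in 22, 22 and 35 nuclei. In other endothelial nuclei Slit2 was lower by 2.82 and 2.97-fold. Itgav, the integrin alpha V gene, stood at 231, 224 and 77.1 CPM, and Adgrg6, an adhesion receptor of endocardium, at 444, 487 and 186 CPM. Creb5, a transcription factor gene, stood at 425, 409.7 and 125 CPM, and Rbms3, an RNA-binding protein gene, at 407, 417 and 167 CPM. Ncx1-/- was the lowest library for each.

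Stil, Cep120 and Mtbp were lower too. Stil, needed to build centrioles, stood at 259, 193 and 77.1 CPM, 3.36 and 2.51-fold below the other libraries. Cep120, a centriole elongation gene, stood at 148, 147 and 64.3 CPM, and Mtbp, a binding partner of Mdm2, at 185, 124 and 48.2 CPM. In other endothelial nuclei the same differences were smaller, 1.23 and 1.14-fold for Stil, 1.21 and 1.15-fold for Cep120 and 1.26 and 1.13-fold for Mtbp. The difference between both groups of nuclei was not tested. Of 18 cell cycle genes measured 0 stood apart, with a median of -0.19 and -0.06.

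Some endocardial and matrix genes were lower as well. Tbx20 stood at 582, 472 and 308 CPM, 1.89 and 1.53-fold below Ncx1+/+ and Ncx1+/-. Hapln1, which links hyaluronan in cushion matrix, was found in every selected nucleus and stood at 2838, 2165 and 1388 CPM, 2.05-fold (1.76 to 2.37) below Ncx1+/+ and 1.56-fold (1.34 to 1.82) below Ncx1+/-. Col5a2, a fibrillar collagen chain, stood at 499, 301 and 161 CPM, and Smad6, the inhibitor of BMP signalling, at 1267, 1306 and 765 CPM. Of 13 endocardial genes measured, Tbx20, Hapln1 and Adgrg6 stood apart as lower and Tmem100 as higher, with a median log2 ratio of -0.31 and -0.38. In other endothelial nuclei the same genes had medians of -0.45 and -0.39, so the selected nuclei share this with the rest. Tbx20, Hapln1 and Adgrg6 were lowest and Tmem100 highest in Ncx1-/- there too. Ncam1, the protein that carries polysialic acid, stood at 333, 278 and 145 CPM and stood apart as lower. In other endothelial nuclei it stood at 566, 402 and 204 CPM. Of 13 genes of the endothelial-to-mesenchymal transition measured, Tbx20 was the 1 lower and 0 were higher.

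Ncx1+/- stood apart from both other libraries in fewer genes than Ncx1-/- did. Its selected nuclei held 129357 UMIs against 311252, so the intervals were wider and the counts do not compare the size of the differences. Npas3, a bHLH-PAS factor gene, stood at 64.7, 340.1 and 125 CPM, 5.26 (2.35 to 13.8) and 2.71 (1.72 to 4.29) times the Ncx1+/+ and Ncx1-/- levels. Unc5c, a netrin receptor gene, stood at 139, 363 and 122 CPM, and Sema3a, a guidance ligand gene, at 222, 549 and 215 CPM. Plxdc2 stood at 92.5, 216 and 80.3 CPM. Nrg1, the neuregulin of endocardium, stood at 712, 1237 and 633 CPM, but 1 Ncx1+/- nucleus held 51 of its 160 UMIs there. Other list genes that stood apart as higher were Nrip1, of the retinoic acid list, at 268, 433 and 238 CPM, and Gata6 at 166, 309 and 180 CPM. Col4a2, at 120, 301 and 196 CPM, and the globin gene Hba-x, at 74.0, 271 and 22.5 CPM, did so too. Without the nucleus richest in each gene, 17 genes were higher and 16 lower, of which 12 and 13 were called before.

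Genes lower in Ncx1+/- included several at very few molecules. Tmeff2 had 23, 1 and 29 UMIs, and 1 nucleus of Ncx1+/+ held 14 of them. Ier2, an immediate early gene, had 13, 3 and 36 UMIs and was 5.18 (1.42 to 28.4) and 4.99 (1.58 to 25.3)-fold below Ncx1+/+ and Ncx1-/-. Brix1, a ribosome assembly gene, had 14, 4 and 37 UMIs and Sin3a, a corepressor gene, 15, 4 and 37. Of genes in the lists, 8 stood apart as lower: Nfatc1, Nrp2, Sox7 and Angpt1, the muscle genes Myh7 and Ttn, the histone demethylase gene Kdm3a and the ribosomal gene Rpl7. Myh7 stood at 277, 92.8 and 353 CPM and Ttn at 1979, 1044 and 2162 CPM. They were the 2 of 12 cardiomyocyte markers measured that stood apart here, and their part in the other differences was not tested. Single nuclei of Ncx1+/+ held 106 of its 214 Ttn UMIs, 12 of its 30 Myh7 UMIs and 9 of its 15 Angpt1 UMIs. Sox7, an endothelial SOX factor, stood at 259, 92.8 and 318 CPM, 2.79 (1.37 to 6.02) and 3.43 (1.88 to 6.86)-fold below the other libraries. Nrp2, a co-receptor of semaphorins and VEGF-C, stood at 213, 69.6 and 199 CPM, and 1 nucleus of Ncx1-/- held 23 of its 62 UMIs.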

How the data were processed

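Nuclei of whole hearts were profiled in 3 libraries, 1 per genotype. The authors deposited raw UMI counts for each gene and barcode. The submitters' processing notes name mm10 and Cell Ranger 6.1.0, but per the file headers version 9.0.0 wrote the matrices. How intronic reads were treated was not found in the sources used here. Of 27998 gene identifiers, 27645 matched GENCODE M21 of the same build, used for coordinates.

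The rule was applied to the raw counts of each library. Counts were summed over the selected and the other endothelial nuclei and scaled to CPM by their total (Python 3.11.15, numpy 2.4.6, scipy 1.17.1). Ratios carry exact conditional binomial intervals and shares Clopper-Pearson intervals, at 95%. The selected nuclei and the gene lists were chosen with earlier results of these data known. Cardiomyocyte nuclei were defined after the data were seen. Named genes are the 12 highest and 12 lowest against other endothelial nuclei by the smallest of the 3 folds, the 10 highest and lowest in Ncx1-/- and the 4 highest and lowest in Ncx1+/- by the smaller ratio. Genes used by the rule, predicted and sex-linked genes and those of ribosomes, mitochondria and haemoglobin were not ranked. List genes that were called, or the 3 with most counts where none was, and a set of genes always reported may also be named. No doublet was removed by the rule. Scrublet (in scanpy 1.11.5) was used in an alternative that drops the top 8% of scores and nuclei over 5% mitochondrial UMIs, which removed 2, 4 and 10 selected nuclei. TMM factors came from edgeR 4.0.16. The calling was tested on simulated data. Alternatives are in the closing section, and 2 of them were chosen after seeing the data.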

Additional observations from a re-analysis of the deposited data

Results flagged for a closer look

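For 7 of 12261 genes the selected nuclei lay at least 2-fold above the other endothelial nuclei in 1 library and at least 2-fold below in another, with both counting intervals excluding 1 and at least 1 UMI in each. The differences between libraries were not tested. Tmeff2, a transmembrane protein gene, had folds of 3.62 in Ncx1+/+ and 0.126 in Ncx1+/-. It stood at 213, 7.73 and 93.2 CPM, and 1 nucleus held 14 of its 23 UMIs in Ncx1+/+. Enox1 had folds of 2.98 in Ncx1+/+ and 0.391 in Ncx1-/-, and 1 nucleus held 6 of its 10 UMIs in Ncx1+/+. Rpgr, a gene of the cilium transition zone, had folds of 2.37 in Ncx1+/+ and 0.290 in Ncx1-/-, on 8 and 3 UMIs. Pus7, a pseudouridine synthase gene, had folds of 2.06 and 0.456 in the same libraries, on 14 and 10 UMIs. Grin3a, a glutamate receptor gene, had folds of 2.05 in Ncx1+/- and 0.237 in Ncx1-/-, and 1 nucleus held 5 of its 12 UMIs in Ncx1+/-. Senp3 had folds of 2.18 and 0.422 in these libraries, its 15 UMIs in Ncx1+/- coming from 12 nuclei. Hba-x, an embryonic globin gene, had folds of 2.18 and 0.412, and 1 nucleus held 17 of its 35 UMIs in Ncx1+/-.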

How the results depend on the processing

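With 1 library per genotype and few nuclei, depth limits every value, and what follows is counts of genes, not tests. The share of selected nuclei was 0.103, 0.120 and 0.579% when at least 3 of the 4 genes were required, 1.52, 1.72 and 5.08% when other sets were ignored, 0.448, 0.641 and 1.16% without Cyp26a1 in the rule and 0.440, 0.714 and 2.60% with nuclei thinned to 2000 UMIs, and it was highest in Ncx1-/- each time. Against other endothelial nuclei, where 33 genes were higher and 21 lower, the counts were 11 and 6 with 3 genes required, 17 and 5 with other sets ignored, and 7 and 6 after thinning. Without Cyp26a1 21 were higher, and with the doublet and mitochondrial filter 37 were lower. A 1.5-fold limit gave 66 and 63. Ncx1+/+ and Ncx1+/- alone gave 56 and 61, since a gene then has to pass in fewer libraries. Leaving out, for each gene, the nucleus with most of its UMIs, an alternative added after seeing the data, left 22 higher, 20 of them among the 33, and 50 lower, which it favours by construction. Nlgn1, Enpp3, Clec14a, Gja5 and Prl2c3 were then no longer called. In Ncx1-/-, where 60 genes were higher and 74 lower, the counts were 4 and 9 with 3 genes required, 3 and 11 after thinning, and 28 and 24 at 2-fold. The higher count was 118 with other sets ignored and 19 without Cyp26a1. In Ncx1+/-, where 25 were higher and 26 lower, thinning gave 8 and 3, and the 2-fold limit 8 and 17. The higher count was 43 with a minimum of 20 UMIs and 49 with none. The lower count was 7 with 3 genes required, 15 without Cyp26a1, 14 with the doublet filter and 16 without the richest nucleus. The cause was not tested where fewer nuclei alone do not account for it. Other size factors, a stricter endothelial gate, a 1000-gene minimum and totals without ribosomal, mitochondrial and Malat1 UMIs, the last added after seeing the data, kept all 6 counts within 1.5 times. For named genes against other nuclei, 284 of 360 cases stayed past the limits, 59 fell short and 17 gave no value. Between genotypes 287 of 392 stayed, 7 fell short and 98 gave no value because the gene had under 50 UMIs. Of the 28 genes, values were had for 1 with 3 genes required, 2 after thinning, 7 without Cyp26a1, 17 with the doublet filter and 18 without the richest nucleus. List counts moved in 39 cases and were stable in 241. No named gene changed direction under any alternative that gave it a value. The 17 cases without a value were 8 with 3 genes required, 8 after thinning and 1 without Cyp26a1. No paired analysis was possible because each genotype has 1 library and the labels number no replicates.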

Other observations

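Gene groups not described above gave few calls. Of 32 cilia genes measured against other endothelial nuclei 0 were called, with a median log2 fold of 0.31, 0.07 and -0.04, and 0 of the 2 measured between genotypes stood apart. Of 21 Notch genes 0 were called, with a median of 0.06, 0.16 and 0.25. Of 32 cell cycle genes 0 were called, Top2a, the topoisomerase of dividing cells, standing at 666, 572 and 598 CPM against 470.1, 462 and 516 CPM. Of 20 VEGF and angiopoietin genes 0 were called, with a median of 0.93, 0.52 and 0.51. Of 27 matrix genes 0 were called. Cushion mesenchyme markers summed to 213, 186 and 138 CPM against 726, 551 and 294 CPM, 0.293, 0.337 and 0.470 times the level of the other nuclei, and Cdh11 was the 1 called of 8 measured. Fli1, an ETS factor of endothelium and blood and the most abundant of the haemogenic and blood progenitor genes, stood at 1045, 881 and 659 CPM against 628, 595 and 511 CPM. Lymphatic genes summed to 1.43, 1.30 and 1.09 times, with Foxp2 the 1 of 2 measured between genotypes that stood apart, as lower in Ncx1-/-. Tip and sprouting genes summed to 0.795, 0.908 and 1.07 times, so they lay on both sides of 1.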
